A study of Homo sapiens with 6 samples.

Results

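The RNA polymerase I machinery was followed here through 10 genes of the deposited table of 17929, chosen by symbol: the subunits POLR1A, POLR1B, POLR1C, POLR1D and POLR1E, the initiation factors UBTF, RRN3, TAF1B and TAF1C, and the termination factor TTF1. All 10 were present, and each was represented by 1 row. In GENCODE on GRCh38 they lie on chromosomes 2 (POLR1A, POLR1B and TAF1B), 6 (POLR1C), 9 (POLR1E and TTF1), 13 (POLR1D), 16 (RRN3 and TAF1C) and 17 (UBTF). The samples were human embryonic stem cells of the established lines H9 and HES2, kept on irradiated mouse feeder cells and harvested 4 days after infection with a hairpin virus. Each line gave 1 library with a hairpin against luciferase (shLuc), the control, and 1 library with each of 2 hairpins against the nucleolar helicase DDX18 (shDDX18#1 and shDDX18#3), so that all 6 libraries carried a hairpin and each arm was represented by 2 libraries. The labels do not state separate cultures within a line, and the p-values therefore measure only the spread between these samples, which may in part be technical. With 1 library per line and arm, that spread also holds unlike responses of the 2 lines. Where the 2 hairpins are pooled as knockdown, it holds the difference between the hairpins too. Uninfected cells were not analysed here.

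RNA polymerase I transcribes the repeated ribosomal RNA genes in the nucleolus and makes the long precursor from which most ribosomal RNA is cut. The factor UBTF binds along the ribosomal DNA, selectivity factor SL1 (TBP with the TAF1 proteins) marks the promoter, and RRN3 links a polymerase that is competent to start to SL1. TTF1 binds terminator sequences downstream of the transcribed region. POLR1C and POLR1D are also subunits of RNA polymerase III, which makes transfer RNA and the smallest ribosomal RNA, and mutations in POLR1B, POLR1C and POLR1D are known from Treacher Collins syndrome, a disorder of craniofacial development. The libraries measured messenger RNA of these proteins, not ribosomal RNA or polymerase activity.

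Promoter windows from 250 bases before to 50 bases after the start were found in RefSeq (GRCh38.p14) for 9 of the 10 genes, in 14 windows because several genes have 2 starts, and POLR1E was not matched. Shown here are the parts before the first annotated untranslated or coding base for 2 genes that fell in the knockdown, UBTF and POLR1B, and 2 that were not called, TTF1 and TAF1C. For POLR1B the printed part runs on to the end of a match. Capitals mark CCGGAAG, a motif of ETS factors, or GGCGGGA, a motif of E2F factors, in either orientation, and all run 5′ to 3′ on the strand of the gene. The TAF1C and TTF1 windows each held 2 ETS matches, of which 0 and 1 lie in the printed parts. The window of the upstream UBTF start, not printed, held 0 matches of either motif. The parts are chr17:44219751-44219925 (minus strand, the downstream start of UBTF), chr2:112541786-112541916 (plus strand, POLR1B), chr9:132406852-132407090 (minus strand, TTF1) and chr16:84187071-84187307 (minus strand, TAF1C).
UBTF: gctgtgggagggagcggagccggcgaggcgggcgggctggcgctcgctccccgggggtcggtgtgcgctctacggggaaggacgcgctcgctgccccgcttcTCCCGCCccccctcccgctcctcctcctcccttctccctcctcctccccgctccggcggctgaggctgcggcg
POLR1B: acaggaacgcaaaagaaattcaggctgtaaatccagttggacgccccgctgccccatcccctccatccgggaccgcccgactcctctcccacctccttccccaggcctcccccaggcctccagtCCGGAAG
TTF1: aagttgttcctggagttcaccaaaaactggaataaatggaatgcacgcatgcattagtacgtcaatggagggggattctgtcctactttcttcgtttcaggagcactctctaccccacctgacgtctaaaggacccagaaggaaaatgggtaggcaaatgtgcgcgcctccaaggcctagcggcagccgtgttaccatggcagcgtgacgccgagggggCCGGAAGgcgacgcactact
TAF1C: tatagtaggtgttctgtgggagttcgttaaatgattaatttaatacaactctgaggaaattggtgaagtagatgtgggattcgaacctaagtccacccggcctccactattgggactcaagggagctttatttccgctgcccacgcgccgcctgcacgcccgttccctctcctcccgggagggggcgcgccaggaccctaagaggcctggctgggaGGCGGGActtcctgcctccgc

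On both strands of the full windows, CCGGAAG occurred in 6 of the 9 genes (POLR1B, POLR1C, RRN3, TAF1B, TAF1C and TTF1), in 9 of 14 windows. The same letters occurred in 10.3% of all 35116 windows, and in 20.2% of the 11908 genes of the deposited table that have a window. GGCGGGA occurred in 3 of the 9 genes (POLR1D, TAF1C and UBTF), against 15.4% of all windows and 29.4% of the table's genes. CACGTG, the E box read by MYC, and GCGCATG, part of the NRF1 site, had 0 matches among the members, against 7.26% and 4.43% of all windows and 12.0% and 8.13% of the table's genes. CCAAT, read by NFY, occurred in 4 of 9 genes, against 34.6% of all windows and 42.2% of the table's genes. GGGCGG, read by SP factors, also occurred in 4 of 9 genes, against 45.0% of all windows and 75.2% of the table's genes. A run of GGGCGGGA counts for both the E2F and the SP motif. UBTF and POLR1B, which both fell, shared GGGCGG and differed in the ETS and E2F motifs, and the ETS motif was present in genes that were not called as well.

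Levels are given as reads scaled by library size (CPM), with 2668179 to 4271741 recovered reads per library and 1 read worth 0.224 to 0.408 CPM. Member genes held between 29 reads (TAF1B in H9 shDDX18#1) and 1318 reads (UBTF in HES2 shLuc). Fold changes are on the log2(CPM + 1) scale and were tested with limma across 17768 genes, with a call at an adjusted p under 0.05. The targeted transcript DDX18 measured 153 CPM under shLuc, 19.2 under shDDX18#1 and 47.3 under shDDX18#3 in H9, with 161, 39.3 and 60.4 CPM for these arms in HES2. Of 13 markers of human embryonic stem cells 12 were above the floor of 3 reads in every library. The other, POU5F1, a defining factor of these cells, held 6 and 16 reads under shLuc and 1 to 5 reads in the knockdown libraries. It held 2 reads in H9 shDDX18#1 and 1 in HES2 shDDX18#1. Under shLuc POU5F1 measured 1.66 (H9) and 3.58 CPM (HES2), while SOX2, another of these markers, measured 422 and 377 CPM. Why POU5F1 had so few reads was not tested, and its counts are not read here as its level in the cells. The share of reads of the 13 markers was 0.586% to 0.602% in shLuc and 0.198% to 0.332% in the knockdown libraries. In the knockdown comparison 9 of the 13 fell and 0 rose, against 6.26% and 9.6% of all genes tested. Of 20 markers of fibroblasts and feeder cells, 13 rose and 0 fell, against 9.6% and 6.26% of all genes tested. The 20 summed to 0.67% (H9) and 0.278% (HES2) of reads under shLuc. Under shDDX18#1 they summed to 9.24% (H9) and 3.6% (HES2), and under shDDX18#3 to 3.46% (H9) and 2.17% (HES2). DCN, a matrix proteoglycan of fibroblasts, was at 0 in HES2 shLuc and HES2 shDDX18#3. Against the shLuc of their own line, 0 (shDDX18#1) and 2 (shDDX18#3) of the 20 were lower in H9, and 2 and 5 in HES2. THY1 and S100A4 were lower in both HES2 knockdown libraries. How many fibroblasts or feeder cells the libraries held, and their part in the values below, was not tested. In such bulk libraries fewer cells of a type and less RNA per cell cannot be told apart.

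The transcripts of the 10 genes all had a negative fitted change in the knockdown, and 3 of them fell: UBTF, POLR1B and POLR1E. Of all genes tested 6.26% fell, 9.6% rose and 15.9% were called in either direction. The fitted change was negative for 10 of 10 members, against 51.3% of all genes tested, and the members' median was -0.49 against -0.02 over all genes. In 6 of 10 members (POLR1B, POLR1E, POLR1D, UBTF, TAF1B and TTF1) all 4 knockdown libraries lay below both shLuc libraries, which held for 20.9% of genes, and 0 members had all 4 above both, which held for 19.8%. Against the shLuc library of their own line, 7 of 10 members were lower in 4 of 4 knockdown libraries (27.9% of genes) and 0 were higher in 4 of 4 (25.8%). Summed, the 10 genes took 0.0917% of reads under shLuc, 0.0449% under shDDX18#1 and 0.0625% under shDDX18#3 in H9, with 0.0926%, 0.0658% and 0.0726% for these arms in HES2. The authors' deposited table has the same 3 members at a false discovery rate under 0.05. That test used the same data and is not separate support, and its share over all genes is not given here. All 3 calls were lost without the intensity trend in limma's prior variance, and also when either shLuc library was left out, which leaves the effect to the other line. Without HES2 shDDX18#1 only UBTF was called.

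**Figure D1:**
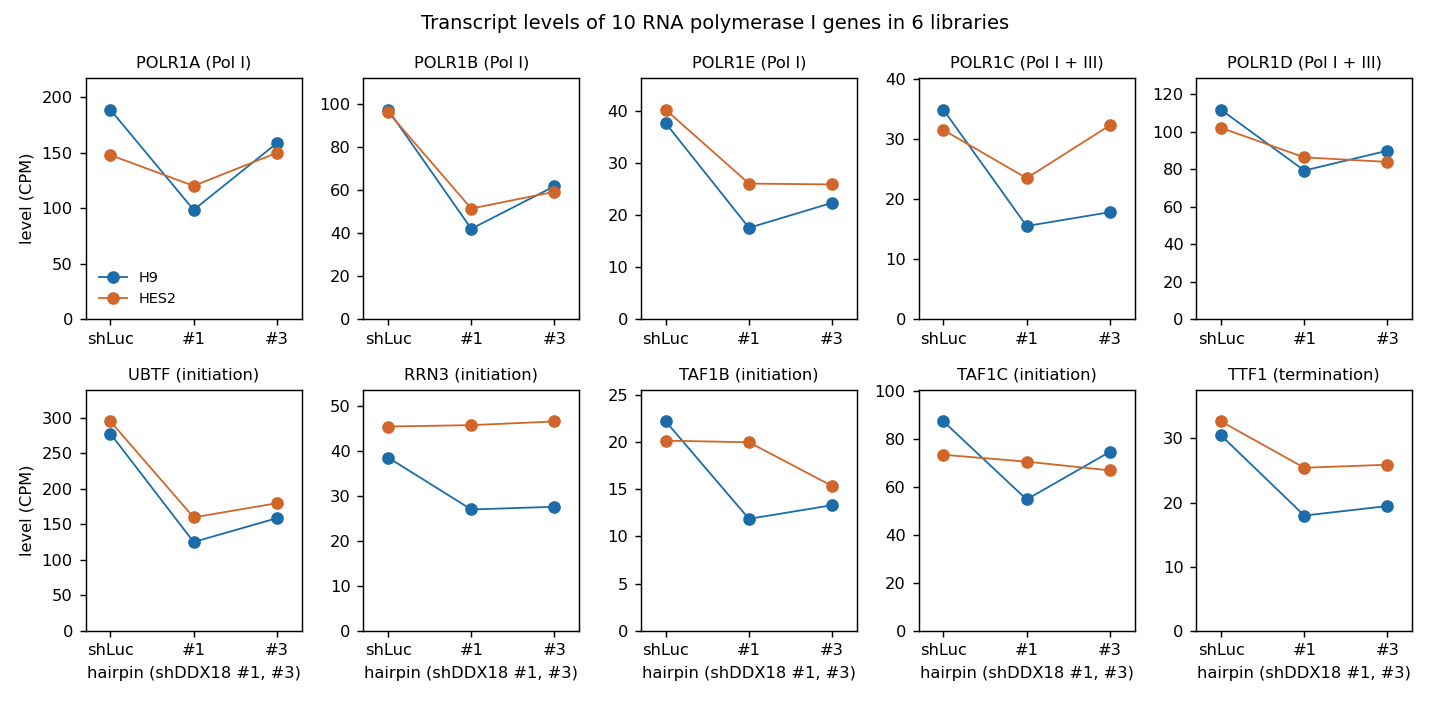
Level of each of 10 RNA polymerase I genes (y axis, CPM, from 0) in the shLuc, shDDX18#1 and shDDX18#3 libraries (x axis) of H9 (blue) and HES2 (orange), 1 point per library, joined within a line. The 4 knockdown points of UBTF lie between 125 and 180 CPM, below both shLuc points at 277 and 295, whereas RRN3 in HES2 stays between 45.4 and 46.5 CPM.

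The catalytic core is formed by POLR1A, the largest subunit, and POLR1B, the second largest. POLR1B measured 97.5 CPM under shLuc, 42.1 under shDDX18#1 and 61.9 under shDDX18#3 in H9, with 96.4, 51.5 and 59.3 CPM for these arms in HES2. The 2 shLuc libraries were nearly equal and the 4 knockdown libraries all lay well below them. POLR1B fell from 96.9 ± 0.778 (SD, n = 2) to 53.7 ± 8.93 CPM (SD, n = 4), and limma gave -0.86 (SE 0.19) on the log2 scale, adjusted p = 0.0221. POLR1A stood at 189, 98.4 and 159 CPM in H9 shLuc, shDDX18#1 and shDDX18#3, and at 148, 120 and 150 CPM in HES2. Its shDDX18#1 libraries were the lowest in each line, while HES2 shDDX18#3 lay at 101% of its own shLuc, so the groups overlapped. The POLR1A change of -0.36 with SE 0.22 was not called (adjusted p = 0.282, 95% interval -0.87 to 0.14).

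POLR1E, the subunit known as PAF53 that associates with the core and takes part in initiation, fell. It measured 37.7 CPM under shLuc, 17.6 under shDDX18#1 and 22.4 under shDDX18#3 in H9, with 40.2, 26.1 and 25.9 CPM for these arms in HES2. The knockdown libraries lay between 46.6% and 64.8% of their own shLuc, and the groups did not overlap. Mean levels were 38.9 ± 1.83 (SD, n = 2) and 23.0 ± 3.99 CPM (SD, n = 4), and limma gave -0.75 (SE 0.19) on the log2 scale, adjusted p = 0.0346.

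The subunits shared with RNA polymerase III, POLR1C and POLR1D, form a heterodimer on which the core assembles, and neither was called. POLR1C stood at 34.9, 15.5 and 17.8 CPM in H9 shLuc, shDDX18#1 and shDDX18#3, and at 31.5, 23.5 and 32.3 CPM in HES2. Both H9 hairpins lay far below their control while HES2 shDDX18#3 was at 102% of it. The POLR1C change was -0.61 with SE 0.25 (adjusted p = 0.132). Of its annotated exon bases 18.2% overlap genes on the opposite strand, and because the kit keeps no strand those reads could belong to either gene. POLR1D stood at 112, 79.2 and 89.8 CPM in H9 and at 102, 86.2 and 83.8 CPM in HES2, in the same order of arms. All 4 knockdown libraries were below both controls, by a small margin, and the change of -0.33 with SE 0.14 was not called (adjusted p = 0.139).

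Among the initiation factors UBTF, the architectural protein of active ribosomal DNA, had the fitted change furthest from 0 among the members. It measured 277 CPM under shLuc, 125 under shDDX18#1 and 159 under shDDX18#3 in H9, with 295, 160 and 180 CPM for these arms in HES2. The order of the arms was the same in both lines, and the groups did not overlap. UBTF fell from 286 ± 12.2 (SD, n = 2) to 156 ± 22.7 CPM (SD, n = 4), and limma gave -0.88 (SE 0.15) on the log2 scale, adjusted p = 0.0108. In the authors' deposited table UBTF is at -0.88. Of its annotated exon bases 3.62% overlap other genes.

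RRN3, the factor through which growth signals reach polymerase I, was not called in the knockdown. It stood at 38.5, 27.0 and 27.6 CPM in H9 shLuc, shDDX18#1 and shDDX18#3 and at 45.4, 45.7 and 46.5 CPM in HES2. Every HES2 library lay above every H9 library, and within HES2 the knockdown libraries were at 101% and 102% of shLuc. The knockdown change of -0.23 with SE 0.18 was not called (adjusted p = 0.398, 95% interval -0.64 to 0.18). RRN3 has near-identical pseudogene copies, so its reads are uncertain: RRN3P1 held 3.68 to 9.84 CPM and RRN3P3 5.15 to 11.9 CPM, and neither was called.

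The SL1 subunits TAF1B and TAF1C were not called. TAF1B, which resembles the polymerase II factor TFIIB, stood at 22.1, 11.8 and 13.3 CPM in the H9 arms and 20.1, 20.0 and 15.3 CPM in the HES2 arms, in the order shLuc, shDDX18#1, shDDX18#3. Its change was -0.48 with SE 0.24 (adjusted p = 0.196). The highest knockdown value lay just under the lower control. TAF1C stood at 87.2, 54.7 and 74.6 CPM in H9 and 73.3, 70.5 and 66.8 CPM in HES2, so that H9 shDDX18#3 exceeded the HES2 control. Its change was -0.27 with SE 0.18 (adjusted p = 0.322), and 8.07% of its exon bases overlap DNAAF1 on the opposite strand.

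TTF1 stood at 30.5, 18.0 and 19.5 CPM in H9 shLuc, shDDX18#1 and shDDX18#3 and at 32.6, 25.4 and 25.9 CPM in HES2. All 4 knockdown libraries were below both controls, with H9 the lower line. The change of -0.51 with SE 0.19 was not called (adjusted p = 0.0989, 95% interval -0.93 to -0.08).

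**Figure D2:**
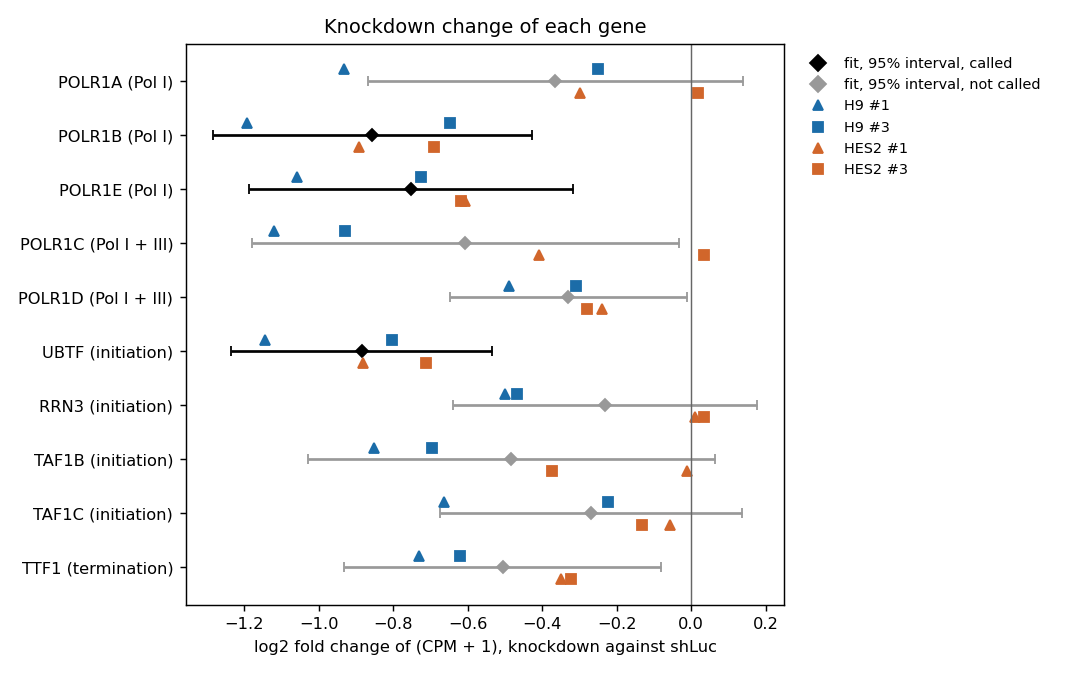
Log2 fold change of CPM + 1 (x axis) for each gene (rows): diamonds are the limma estimate over 4 knockdown and 2 shLuc libraries with its 95% interval, black where called and grey where not, and triangles (shDDX18#1) and squares (shDDX18#3) are single libraries against the shLuc library of their own line, H9 in blue and HES2 in orange. UBTF (-0.88), POLR1B (-0.86) and POLR1E (-0.75) are the called genes, and 36 of the 40 single-library values are below 0. Of all 17768 genes tested, 9099 (H9 shDDX18#1), 8769 (H9 shDDX18#3), 9189 (HES2 shDDX18#1) and 9186 (HES2 shDDX18#3) were below 0. The 2 values of a gene within a line share 1 shLuc library.

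Set per kilobase of annotated exon, the shLuc level of UBTF was 40.9 CPM per kb and those of the other members lay between 5.2 and 15.5. POLR1E (15.5 ± 0.728), POLR1B (15.3 ± 0.123), TAF1C (14.4 ± 1.76) and POLR1A (12.4 ± 2.13) followed, each overlapping its neighbour in the order over the 2 shLuc libraries (SD, n = 2). RRN3 (10.1 ± 1.17), TTF1 (9.81 ± 0.481) and POLR1D (9.52 ± 0.608) formed a further overlapping run. POLR1C (5.98 ± 0.428) and TAF1B (5.2 ± 0.353) were lowest. These levels per length use the union of all exons in GENCODE, which for POLR1D spans 11.2 kb, so genes with long rarely used exons appear low.

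The stronger and the weaker hairpin were also compared with shLuc separately. These comparisons share the shLuc libraries. With shDDX18#1 UBTF (-1.01, SE 0.14, adjusted p = 0.00136), POLR1B (-1.04, SE 0.16, adjusted p = 0.00256), POLR1E (-0.83, SE 0.21, adjusted p = 0.0187) and POLR1A (-0.61, SE 0.17, adjusted p = 0.0294) fell, 4 of 10 members, against 13.4% of all genes, and 0 rose, against 14.4% (27.8% in either direction). With shDDX18#3 UBTF (-0.76, SE 0.14, adjusted p = 0.0119) and POLR1B (-0.67, SE 0.16, adjusted p = 0.035) fell, 2 of 10, against 3.69% of all genes, and 0 rose, against 6.96% (10.6% in either direction). At an unadjusted p under 0.05 there were 7 of 10 members with shDDX18#1, against 40.2% of all genes, and 3 of 10 with shDDX18#3, against 26.4%. POLR1E stood at -0.67 with shDDX18#3 (adjusted p = 0.0757) and POLR1A at -0.11 (adjusted p = 0.718). The members' median was -0.58 with shDDX18#1 and -0.46 with shDDX18#3, against -0.03 and -0.01 over all genes. POLR1A with shDDX18#1 and POLR1B with shDDX18#3 were not called without the cell line block (adjusted p = 0.0757 and 0.126), nor were POLR1E with shDDX18#1 (0.0731) and UBTF with shDDX18#3 (0.112). The count with shDDX18#1 was 2 without H9 shLuc, H9 shDDX18#1, H9 shDDX18#3 or HES2 shDDX18#3, and that with shDDX18#3 was 1 without H9 shLuc and 0 without either shDDX18#3 library.

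Tested directly, 0 of 10 members differed between the hairpins in limma, as did 0% of all genes tested, while POLR1A (0.50, 95% interval 0.11 to 0.89) and POLR1B (0.37, 95% interval 0.00394 to 0.744) had an unadjusted p under 0.05. The adjusted p-values were 0.246 and 0.347. Among all genes 14.3% had an unadjusted p under 0.05 in this comparison. The edgeR and DESeq2 fits also called 0 members. In H9 all 10 members were lower with shDDX18#1 than with shDDX18#3, against 52.7% of all genes, and in HES2 6 of 10, against 50.6%. Both lines had this order for POLR1A, POLR1B, POLR1C, UBTF, RRN3 and TTF1, 6 of 10 members, against 33.6% of all genes. For UBTF the difference of 0.26 had a 95% interval of -0.06 to 0.57 (adjusted p = 0.443).

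The mean fold change of H9 was further below 0 than that of HES2 for each of the 10 members, and the interaction test called 0 of them, as it called 0% of all genes. The H9 mean over the 2 hairpins was furthest from that of HES2 in POLR1C, at -1.02 against -0.19, a difference of 0.84 with SE 0.43 (limma adjusted p = 0.9998, 95% interval -0.19 to 1.87). TAF1B stood at -0.77 in H9 and -0.19 in HES2, RRN3 at -0.48 and 0.02, and POLR1A at -0.59 and -0.14. Among the genes called in the knockdown, the values were UBTF at -0.97 and -0.80, POLR1B at -0.92 and -0.79 and POLR1E at -0.89 and -0.61. Of all genes 51.1% had a positive interaction term, the sign found in all 10 members, and the members' median was 0.34 against 0.01. At an unadjusted p under 0.05 the count was 0 of 10 members and 4.43% of genes, and edgeR and DESeq2 called 0 members. Without H9 shDDX18#1 the members' median interaction was 0.12 and that of POLR1B was -0.15. H9 shDDX18#1 was the library with the least DDX18 left, 12.6% of its control against 24.5% to 37.6% in the others, and with the highest share of fibroblast and feeder markers, and the part of either in this difference was not tested.

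**Figure D3:**
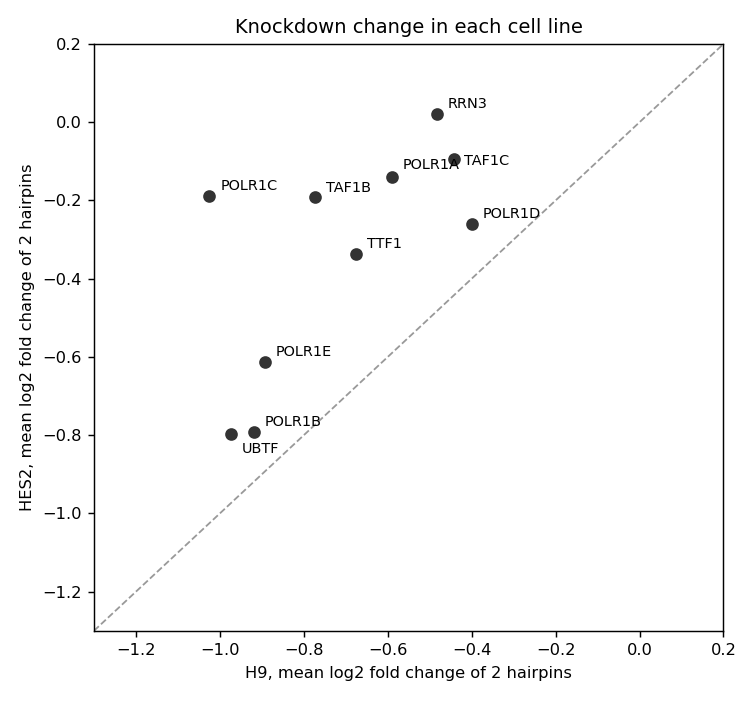
Mean log2 fold change of CPM + 1 over the 2 hairpins against the line's own shLuc in H9 (x axis) and in HES2 (y axis), 1 point per gene, with the dashed line marking equal change. All 10 genes lie above the line, POLR1B (-0.92 in H9, -0.79 in HES2) nearest to it and POLR1C (-1.02 and -0.19) furthest. Of these differences 0 were called.

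Between the lines, with the arm as a block, 0 of 10 members were called, against 5.42% of all genes (3.98% lower and 1.44% higher in HES2). RRN3 came closest, at 45.9 ± 0.579 CPM in HES2 and 31.0 ± 6.49 CPM in H9 (SD, n = 3 each), a log2 difference of 0.57 with SE 0.16 (limma adjusted p = 0.0858). It was the only member with an unadjusted p under 0.05, which 21.1% of genes had, and edgeR and DESeq2 called 0 members. RRN3 and POLR1C were called as higher in HES2 when either shLuc library was left out, with RRN3 at 0.74 and POLR1C at 0.70. Both fits give the same estimate from the 4 knockdown libraries, since the remaining shLuc library has no partner in the other line. Under shLuc POLR1C stood at 31.5 CPM in HES2 and 34.9 in H9, and RRN3 at 45.4 and 38.5 CPM. UBTF (0.21) and POLR1B (0.07) were not called, with 95% intervals of -0.05 to 0.46 and -0.23 to 0.37.

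The remaining polymerase I genes considered were 3 further subunits, 5 subunits common to all nuclear polymerases, and 4 further SL1 components. Of these 12 genes 10 were in the table, where 1 fell, 1 rose and 8 were not called, with a median of -0.32. Over all genes tested, 6.26% fell and 9.6% rose. POLR2H, a common subunit, fell from 57.0 ± 6.28 (SD, n = 2) to 38.9 ± 3.62 CPM (SD, n = 4), by -0.54 on the log2 scale with SE 0.15 (adjusted p = 0.0495). That call was kept in only 5 of 17 alternatives. POLR2L, another common subunit, rose from 115 ± 13.1 to 170 ± 19.7 CPM (SD, n = 2 and 4), by 0.55 with SE 0.15 (adjusted p = 0.0413), in 4 of 4 knockdown libraries, a call kept in 10 of 17 alternatives. Of its exon bases 22.5% overlap CD151 on the opposite strand. POLR1F (-0.30), POLR1G (-0.36), POLR2E (-0.27), POLR2K (-0.34), TBP (-0.28), TAF1A (-0.54), TAF1D (-0.66, limma adjusted p = 0.0685) and TAF12 (0.16) were not called. The authors' deposited table differs for TAF1D, with -0.64 and a false discovery rate of 0.0283. TAF12 stood at -0.13 without H9 shLuc. POLR1F and POLR1G are listed in the deposited table under the older symbols TWISTNB and CD3EAP, and 45.1% of the exon bases of POLR1G overlap other genes.

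Other polymerases gave a reference for the size of these changes. Of 7 subunits found only in RNA polymerase II 0 were called, in limma at an adjusted p under 0.05, with a median of -0.17. Of 11 subunits found only in RNA polymerase III 1 fell and 0 rose, with a median of -0.16. That gene was POLR3K, a small subunit with a part in termination, which fell from 35.6 ± 2.56 (SD, n = 2) to 19.4 ± 2.58 CPM (SD, n = 4), by -0.85 with SE 0.20 (adjusted p = 0.0269), a call kept in 12 of 17 alternatives. Of 10 RNA polymerase III factors 0 were called, with a median of -0.13. Over all genes tested, 6.26% fell and 9.6% rose. The members' median of -0.49 lay further from 0 than each median of these polymerase II and III lists. It was not further than that of the t-UTP group below (-0.53), and the ribosomal DNA regulators stood at -0.44. No test compared the lists. At an unadjusted p under 0.05, 6 of 10 members passed, against 33.1% of all genes.

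Among 16 regulators of ribosomal DNA 5 fell and 2 rose, against 6.26% and 9.6% of all genes tested, with a median of -0.44. MYC, which activates polymerase I genes, fell from 90.5 ± 2.64 (SD, n = 2) to 42.3 ± 10.8 CPM (SD, n = 4), by -1.11 with SE 0.20 (adjusted p = 0.0137). MYCN, its relative in embryonic cells, changed by -1.74 (adjusted p = 0.0115) and the nucleolar protein LYAR by -0.96 (adjusted p = 0.0174). CAVIN1, first described as a polymerase I transcript release factor and also a coat protein of caveolae, which fibroblasts carry, rose from 81.3 ± 47.6 to 335 ± 221 CPM (SD, n = 2 and 4), by 1.87 (adjusted p = 0.00205). The fibroblast and feeder markers given above were also higher in these libraries, and their part in it was not tested. In the t-UTP group, processing proteins that also support polymerase I transcription, 1 of 6 fell, against 6.26% of all genes tested. That gene was WDR75 (-0.82, limma adjusted p = 0.0234). The fitted change was negative for 6 of 6, against 51.3% of all genes tested, with a median of -0.53.

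**Figure D4:**
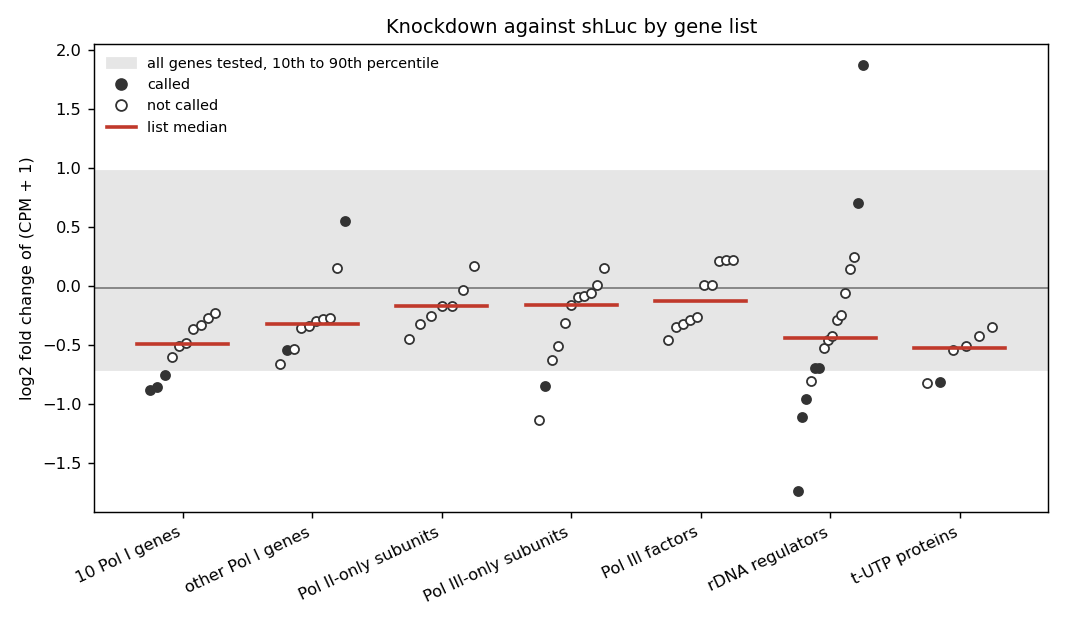
Log2 fold change of CPM + 1, knockdown against shLuc (y axis), for the genes of each list (x axis): filled points were called, open points were not, red bars are list medians, and the grey band spans the 10th to the 90th percentile of all genes tested (-0.71 to 0.98) with their median as a line. The bar of the 10 members is at -0.49, and those of the subunits of RNA polymerases II and III alone are at -0.17 and -0.16. The bars of the rDNA regulators and the t-UTP proteins are at -0.44 and -0.53.

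Likeness of pattern across the 6 libraries is a description without a test, since the libraries share arms, lines and depth. Pearson's r of log2 levels was 0.98 between POLR1E and UBTF, 0.98 between POLR1B and UBTF and 0.96 between POLR1E and TTF1, and lowest between POLR1A and RRN3 (0.27) and POLR1D and RRN3 (0.29). The genes most like UBTF among 8306 with a symbol and a mean of at least 20 CPM were ICMT, SRSF2 and RCOR2, with r of 0.9996, 0.999 and 0.998. For POLR1B they were POP7 (0.999), DHX33 (0.998) and PCNA (0.998), and for POLR1E MTF2 (0.998), CTPS2 (0.997) and SLC37A4 (0.997). Such values are common over 6 libraries: 13.7% of the genes had r above 0.9 with UBTF, and the member nearest to UBTF, POLR1E, was only the 112th gene in that order. For RRN3, BRD1, ZNF629 and QPRT were nearest, and the share of genes above 0.9 was 1.96%, close to those of TAF1B (2.0%) and TAF1C (2.34%).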

How the data were processed

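Messenger RNA was sequenced from 6 libraries prepared with Illumina's TruSeq RNA kit, per the labels' protocols, 1 per line and arm. The submitters' processing notes name Bowtie2 2.3.4.3, SAMtools 1.9, HTSeq 0.11.2, edgeR 3.26.8 and the build hg19, and the role of each is not given in the sources used here. The authors deposited a single table holding normalized signal values for the libraries, beside their log2 fold change, log2 abundance, likelihood ratio score, p-value and false discovery rate. Values from the authors' own test are printed only where their table is named. Dividing each signal value by the worth of 1 read gave whole reads for 100% of values (tolerance 0.001), so the signal is CPM of a scaled library size, and 2668179 to 4271741 reads were recovered per library. A floor of 3 reads is 0.671 to 1.23 CPM.

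A gene was tested if 2 or more libraries reached 1 CPM (17768 genes, all members among them). Values were fitted as log2(CPM + 1) in limma 3.58.1 (R 4.3.3), with a mean-variance trend, the cell line as a block (the arm, for the comparison of lines), and Benjamini-Hochberg adjustment over all genes. The line pairs the libraries: deviations from arm means correlated across genes at 0.36 to 0.65. For the knockdown against shLuc on recovered reads, edgeR 4.0.16 called 1189 genes lower and 1717 higher, and DESeq2 1.42.0 called 1047 and 1814, against 1113 and 1706 in limma.

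The members, lists, motifs and alternatives were chosen with earlier results of these data known. Named genes are the members, DDX18, the other polymerase I genes, the RRN3 copies, and up to 4 called genes of smallest p from each further list. The alternatives were 2 other pseudocounts (0.25 and 4), a missing or stricter filter (5 CPM), 3 other scalings, no trend, no block, the count tools, and leaving out each library. Exon lengths and overlaps came from GENCODE on GRCh38, and hg19 positions were not used here.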

Additional observations from a re-analysis of the deposited data

How the results depend on the processing

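The count of members called in the knockdown comparison, 3, was kept in 13 of 17 alternatives within a factor of 1.5 and went to 0 without the intensity trend. In the shDDX18#1 comparison, with 4, it was 2 without the trend, 2 with DESeq2 and 2 without the cell line block. In the shDDX18#3 comparison, with 2, it was 0, 1 and 0 under these settings. The share of all genes called under each setting is not set beside these counts, so a drop is not read as particular to the members. Without the cell line block 2 members, UBTF and POLR1B, were called in the knockdown comparison. Leaving out 1 library gave 0 to 3 members in the knockdown comparison, 2 to 5 with shDDX18#1, 0 to 2 with shDDX18#3 and 0 to 2 between the lines. Fewer libraries leave fewer residual degrees of freedom, but the estimates moved too and counts went both up and down. The cause of these changes was not tested for any setting. In HES2 against H9 scaling to library totals moved the median of all genes from 0.03 to 0.15 and the split of calls from 708 lower and 255 higher to 568 and 472. POLR1A (0.082), POLR1D (0.10) and TAF1C (0.12) changed sign there, as did POLR1A (0.0018) and TAF1C (0.014) under quantile normalization, and DESeq2 gave -0.000228 for RRN3, shDDX18#3 against shDDX18#1. Leaving out 1 library also turned the sign of values that were not called. Their ranges were -0.48 to 0.022 for RRN3 in the knockdown comparison, -0.50 to 0.0081 with shDDX18#1 and -0.47 to 0.036 with shDDX18#3, -0.34 to 0.11 for POLR1A with shDDX18#3, and -0.13 to 0.44 for TAF12 in the knockdown comparison. Between the hairpins they were -0.036 to 0.36 for POLR1E, -0.048 to 0.19 for POLR1D, -0.10 to 0.16 for RRN3, -0.44 to 0.24 for TAF1B, -0.10 to 0.46 for TAF1C and -0.049 to 0.18 for TTF1. For the interaction the range of POLR1B was -0.15 to 0.40. Between the lines they were -0.22 to 0.10 for POLR1A, -0.039 to 0.13 for POLR1B, -0.11 to 0.011 for POLR1D and -0.20 to 0.10 for TAF1C. UBTF kept its knockdown call in 14 of 17 alternatives, POLR1B in 13 and POLR1E in 11. The interaction could not be fitted without a shLuc library or without the block.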

Other observations

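RNA polymerase III has alternative forms of a subunit, POLR3G, known from pluripotent cells, and POLR3GL, found widely in differentiated cells. These genes were singled out after their values had been seen. POLR3G measured 150 CPM under shLuc, 44.1 under shDDX18#1 and 90.8 under shDDX18#3 in H9, with 92.3, 28.6 and 68.2 CPM for these arms in HES2. Each knockdown library was below both controls, with shDDX18#1 the lower hairpin in each line. The knockdown change of -1.13 with SE 0.37 was not called (limma adjusted p = 0.072), while POLR3G fell in shDDX18#1 against shLuc, by -1.70 with SE 0.15 (limma adjusted p = 0.000262). In shDDX18#3 against shLuc it was at -0.57 with SE 0.15 (limma adjusted p = 0.0509), and the difference between the hairpins was not called (limma adjusted p = 0.0622). POLR3GL held only 3 to 9 reads per library, too few to show a change.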
